A study of Mus musculus with 8 samples.

Results

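The neuregulins and the other ligands of the epidermal growth factor (EGF) family were followed through RNA sequencing of mouse uterine stromal cells. The 10 ligand genes taken by symbol were Nrg1, Nrg2, Nrg4, Hbegf, Tgfa, Areg, Ereg, Epgn, Btc and Egf, out of 23420 gene symbols counted. All 10 were present in the tables. The study has 8 libraries, 4 from females labelled Erbb3f/f and 4 from females labelled Erbb3d/d, all at day 3. By mouse convention, f stands for a floxed allele, with loxP sites around part of the gene, and d for what Cre leaves of it. Libraries are numbered by the replicate number of their label. The labels name no Cre line, give no strain or age, give no starting point for the count of days, and do not say whether animals were pooled. They also do not say that the replicates are separate animals, so the p-values measure the spread between these libraries, which may in part be technical.

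Ligands of this family are made as precursors anchored in the membrane and are cut loose by proteases of the ADAM family, after which they bind receptor tyrosine kinases of the ERBB family on the same or neighbouring cells. Each carries an EGF-like domain that sets which receptor it binds. NRG1 and NRG2 bind ERBB3 and ERBB4, NRG4 binds ERBB4, the products of Hbegf, Btc and Ereg bind EGFR and ERBB4, and those of Tgfa, Areg, Epgn and Egf bind EGFR. ERBB3 has little kinase activity of its own and signals mainly in a pair with ERBB2, which has no ligand. In the mouse uterus, heparin-binding EGF-like growth factor (Hbegf) is known from the luminal epithelium at the site of embryo attachment, and amphiregulin (Areg) as a progesterone-responsive gene of the epithelium around implantation.

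Depth ran from 8578575 to 12854367 reads in genes per library, of which 700 to 1447 fell in the 10 ligand genes. Levels are given as CPM, the common unit for depth, reads divided by a library size scaled for composition. Erbb3 itself had 7.40, 10.6, 8.24 and 12.3 CPM in Erbb3f/f libraries 1 to 4 against 7.36, 14.3, 17.6 and 16.2 CPM in Erbb3d/d libraries 1 to 4. Its level did not drop under the Erbb3d/d label, and whole-gene counts cannot show the loss of single exons, so every direction here follows the labels only. Stromal markers were abundant (summed level of 15 genes from 12122 to 17789 CPM over the 8 libraries), and none of the 15 was at 0. Their mean log2 CPM differed by -0.21 in Erbb3d/d (exact permutation test, p = 0.0857), with 10 of the 15 lower by estimate. Markers of other cells were present as well. The 18 epithelial markers summed to 1170 to 1914 CPM in Erbb3f/f and 1816 to 3006 CPM in Erbb3d/d (exact permutation test of the mean log2 CPM, p = 0.0857). The 10 smooth muscle markers summed to 1276 to 2350 CPM and 1994 to 4649 CPM (exact permutation test, p = 0.0571). Epcam and Krt8 of the epithelium had log2 fold changes of 0.98 (SE 0.27) and 0.76 (SE 0.25), Myh11 of smooth muscle 1.13 (SE 0.39) and Pdgfra of the stroma -0.56 (SE 0.13), with adjusted p-values from 0.205 to 0.337 in edgeR's test. For endothelial and immune markers the exact permutation p was 0.400 and 0.657. These RNAs come from a mixture of cells, in which fewer cells of a type and less RNA per cell cannot be told apart.

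Of the 10 ligand genes, 7 passed the filter on low counts and were tested, and 0 of the 7 were called by edgeR's quasi-likelihood test (adjusted p under 0.05). Over all 14598 genes tested that share was 0%. DESeq2 also called 0 of the ligands, and 262 of all genes. At an unadjusted p under 0.05 there was 1 ligand, Nrg1, where 11.6% of all genes tested passed, 6.64% with a higher and 4.97% with a lower estimate. The estimate was higher in Erbb3d/d for 5 of the 7 and lower for 2, with a median log2 fold change of 0.23, against -0.01 over all genes tested. No tested ligand had all libraries of one label above all of the other, where 5.05% of all genes tested did. The 3 genes below the filter, Areg, Ereg and Epgn, are described by their reads.

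The order of the ligands was compared per length, as reads per kilobase of merged exons in the same units (RPKM; exons of GENCODE vM21 on GRCm38). Nrg2 stood first in Erbb3f/f with 6.07 ± 0.969 RPKM (SD, n = 4), followed by Hbegf with 4.36 ± 1.89 and Tgfa with 3.26 ± 1.14, and these neighbours overlapped. Nrg4 had 1.64 ± 0.442 RPKM, with its highest library above the lowest of Tgfa, and all its libraries lay above those of the next gene. Areg had 0.724 ± 0.392 RPKM, Btc 0.449 ± 0.230 and Nrg1 0.332 ± 0.193, and these also overlapped. Egf followed with 0.157 ± 0.0212 RPKM, apart from Ereg and Epgn, which had reads in 1 library each. In Erbb3d/d the first 4 places were the same, with 6.30, 6.19, 4.56 and 1.34 RPKM, and Nrg1 stood at place 5 with 1.13 ± 0.808 RPKM (SD, n = 4) instead of place 7. The order rests on which exons are counted. With the longest transcript as the length, Hbegf came first in both labels (7.29 RPKM in Erbb3f/f) and Nrg4 was at 4.77 RPKM, above Tgfa in Erbb3f/f. By that length Nrg1 stood at place 6 in Erbb3f/f and place 5 in Erbb3d/d.

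**Figure D1:**
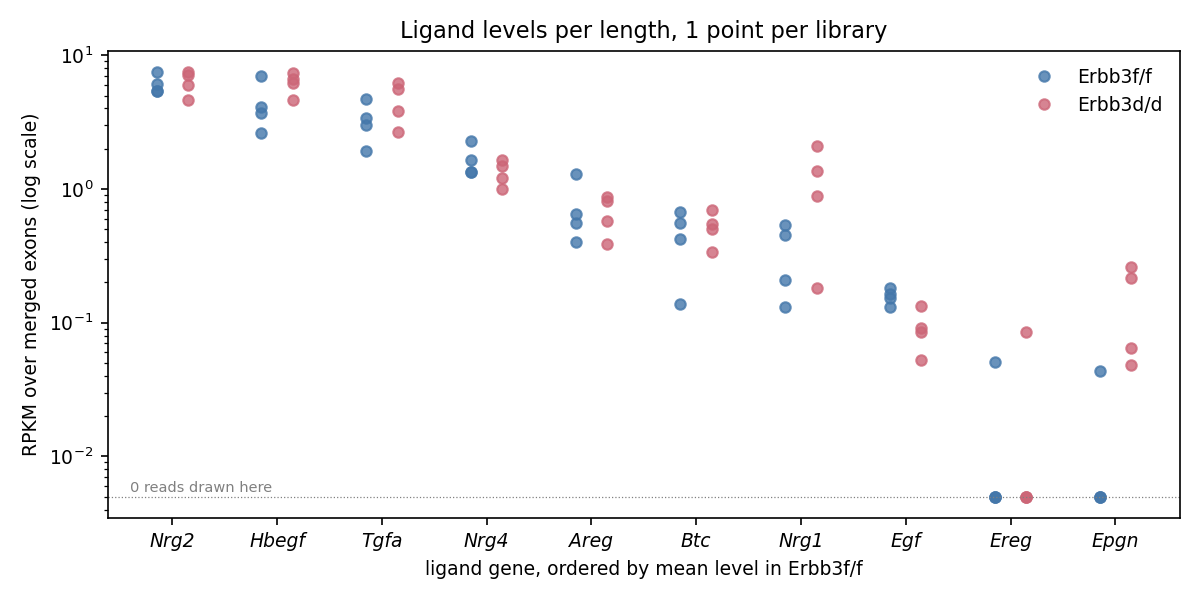
Level of each ligand gene in RPKM over merged exons on a log axis, 1 point per library, blue for Erbb3f/f and red for Erbb3d/d, with libraries without reads drawn on the dotted line. Nrg2, Hbegf, Tgfa and Nrg4 have the highest means in both labels, and Ereg and Epgn the lowest in Erbb3f/f. For Nrg1, 3 of the 4 red points lie above its blue points, and that of replicate 3 (2.10 RPKM) lies above every red point of Nrg4.

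The receptors set these levels in scale. Egfr had 11.4 ± 2.63 RPKM in Erbb3f/f against 6.46 ± 2.38 in Erbb3d/d, Erbb2 had 5.62 ± 0.988 and 7.20 ± 0.879, and Erbb3 had 1.60 ± 0.371 and 2.31 ± 0.757 (SD over 4 libraries of each label). Erbb4, the receptor that NRG4 and several other ligands of the family share, had 0 reads in the 4 Erbb3f/f libraries and 0, 0, 3 and 1 reads in Erbb3d/d libraries 1 to 4. In Erbb3f/f, 0 reads allow a level of up to 0.0724 CPM over the 4 libraries together, for counting error only.

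Position and promoter letters describe the ligand genes further. Epgn, Ereg, Areg and Btc lie side by side on chromosome 5, from 91027464 to 91402994 (375.5 kb, GRCm38), with no other protein-coding gene inside in GENCODE vM21. This cluster holds the 3 ligands below the filter and Btc, which passed it at about 2 CPM. The promoter table from RefSeq on GRCm38.p6 held 6 of the 10 ligands. The windows of Tgfa and Areg are shown because both encode EGFR ligands, one among the 3 highest and the other below the filter. Each runs 5′ to 3′ over the 250 bases before the start of transcription, on the plus strand, chr6:86194972-86195221 for Tgfa and chr5:91139349-91139598 for Areg. Capitals mark the cAMP response element TGACGTCA, the TATA box letters TATAAA and the GC box GGGCGG, each searched on both strands.
Tgfa: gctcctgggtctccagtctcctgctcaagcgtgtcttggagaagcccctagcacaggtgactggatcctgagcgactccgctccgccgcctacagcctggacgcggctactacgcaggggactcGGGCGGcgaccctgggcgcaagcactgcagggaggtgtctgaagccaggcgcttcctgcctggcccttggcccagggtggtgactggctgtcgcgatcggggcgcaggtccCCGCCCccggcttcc
Areg: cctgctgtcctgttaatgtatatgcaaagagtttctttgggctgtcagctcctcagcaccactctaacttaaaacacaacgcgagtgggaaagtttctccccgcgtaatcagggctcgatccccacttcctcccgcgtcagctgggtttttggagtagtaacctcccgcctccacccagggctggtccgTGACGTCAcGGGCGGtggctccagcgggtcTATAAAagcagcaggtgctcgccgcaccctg
The Areg window held the 3 motifs once each, at -61 for TGACGTCA, -52 for GGGCGG and -31 for TATAAA, counted to the first base of the match from the start of transcription, and none of the 3 overlap. Tgfa held GGGCGG at -126 and -15 and neither of the others. Among 32851 windows of the same length, TGACGTCA was in 1.55%, TATAAA in 12.4% and GGGCGG in 32.7%. The Tgfa window had 69.2% G and C and 19 CpG pairs, that of Areg 57.2% and 15, where the medians over all windows were 52.4% and 6. These matches are letters only, and no factor binding was measured.

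Nrg1 encodes neuregulin 1, which binds ERBB3 and ERBB4, and spans 31814551 to 32884029 of chromosome 8, minus strand, where 1 gene of the other strand shares exonic bases with it. In Erbb3f/f libraries 1 to 4 it had 2.14, 1.36, 4.71 and 5.53 CPM (22, 13, 60 and 49 reads). In Erbb3d/d libraries 1 to 4 it had 9.13, 1.86, 21.7 and 14.1 CPM (93, 16, 276 and 161 reads). Replicates 1, 3 and 4 of Erbb3d/d lay above every Erbb3f/f library, while replicate 2 lay below 3 of them, so the labels overlapped. The mean was 3.44 ± 2.0 CPM in Erbb3f/f against 11.7 ± 8.36 CPM in Erbb3d/d (SD over 4 libraries of each label). The log2 fold change was 1.77 (SE 0.67), the largest among the 7 tested ligands, with an unadjusted p of 0.0259 and adjusted p = 0.370 by edgeR. Without Erbb3d/d replicate 2 the log2 fold change was 2.13 (SE 0.46) and the adjusted p 0.0548, still not called. Leaving out any other single library gave adjusted p-values from 0.390 to 0.723 by edgeR.

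The Nrg1 libraries were set beside the cell type lists. Erbb3d/d replicates 3 and 4, the 2 highest for Nrg1, also had the highest mean log2 CPM of the 18 epithelial markers, 6.83 and 6.90, against 5.49 to 6.24 in the other 6 libraries. Erbb3d/d replicate 1, the library next highest for Nrg1, had 6.22 for the epithelial list and the highest value of the smooth muscle list, 8.18. Erbb3d/d replicate 2 had 6.22 for the epithelial list, the same as replicate 1, with 1.86 CPM of Nrg1 against 9.13. Within Erbb3f/f, replicate 4 was highest for both, at 6.24 and 5.53 CPM. Replicate 3 of that label had the lowest epithelial mean of the 8 libraries, 5.49, with 4.71 CPM of Nrg1, while replicate 1 had 6.03 with 2.14 CPM. Adding the epithelial mean as a covariate put the log2 fold change of Nrg1 at 0.69 (SE 0.99), and adding the smooth muscle mean put it at 2.66 (SE 0.92), with adjusted p-values of 1.0 and 0.497 in edgeR's test. The part of these cell types in the Nrg1 values was not tested further.

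**Figure D2:**
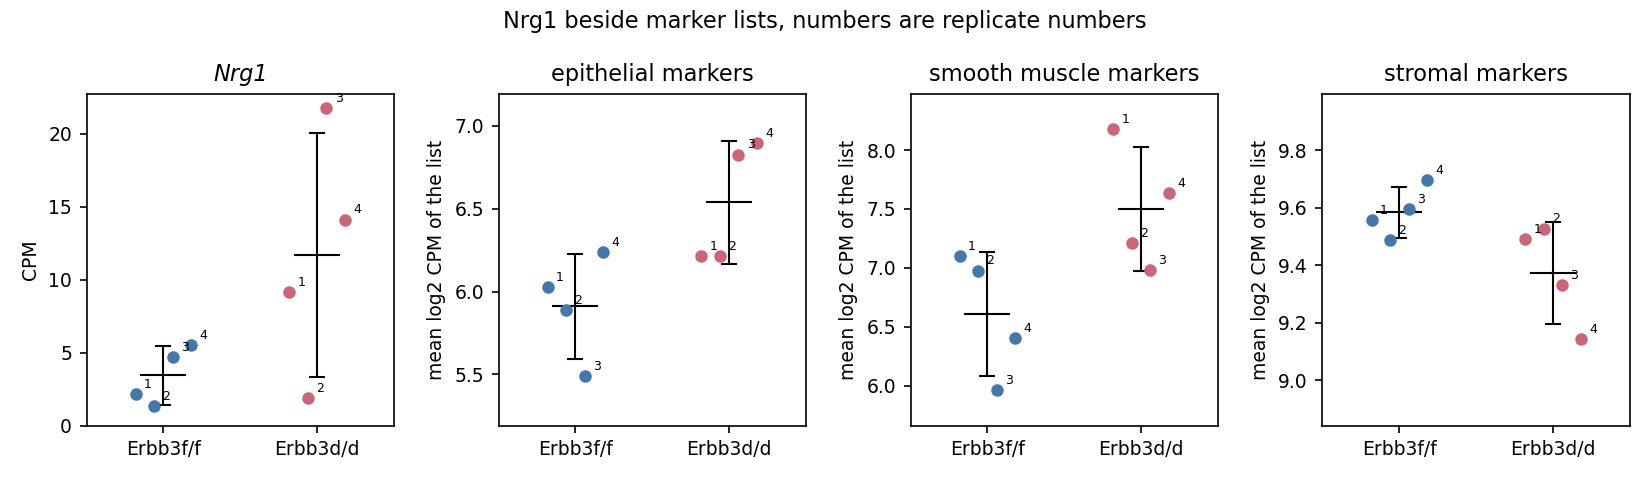
Nrg1 in CPM and the mean log2 CPM of epithelial, smooth muscle and stromal markers in each library, with the replicate number beside each point and the mean ± SD in black. Erbb3d/d replicates 3 and 4 are highest for Nrg1 and for the epithelial markers, and Erbb3d/d replicate 2 has 1.86 CPM of Nrg1.

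The genes whose log2 CPM followed Nrg1 most closely over the 8 libraries, among 12459 genes with a mean of at least 5 CPM, were Ctla4, Pmepa1 and Capg, with Pearson correlations of 0.988, 0.984 and 0.984. They are the highest of many correlations, over libraries that share their labels, so no p is given. Ctla4, best known as an inhibitory receptor of T cells, had 6.91, 5.65, 8.95 and 9.83 CPM in Erbb3f/f libraries 1 to 4 against 11.8, 6.87, 21.2 and 16.7 CPM in Erbb3d/d libraries 1 to 4. Cd3e, a T cell marker on the immune list, had a lower estimate in Erbb3d/d, -0.85 on the log2 scale (SE 0.46), at adjusted p = 0.510 by edgeR. Which cells the Ctla4 reads came from was not tested. Pmepa1, a membrane protein that restrains TGF-beta signalling, ran from 55.8 to 105 CPM in Erbb3f/f and from 66.0 to 201 CPM in Erbb3d/d. Capg, which caps actin filaments, ran over a narrower range, from 12.4 to 15.1 and from 12.8 to 17.0 CPM. In each of the 3 genes, as in Nrg1, Erbb3d/d replicates 1, 3 and 4 exceeded every Erbb3f/f library and replicate 2 did not.

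Nrg2, the other ligand of ERBB3 and ERBB4, lies on chromosome 18 at 36017652 to 36197380. Its levels were 16.8, 17.0, 23.4 and 19.0 CPM in Erbb3f/f libraries 1 to 4 against 18.8, 23.5, 22.3 and 14.5 CPM in Erbb3d/d libraries 1 to 4. The ranges covered each other almost wholly. The means were 19.1 ± 3.04 and 19.8 ± 4.03 CPM (SD over 4 libraries of each label), and the log2 fold change of 0.05 (SE 0.18) was at adjusted p = 0.937 by edgeR. Among the ligands its estimate was the nearest to 0 and had the smallest SE, and it turned to -0.038 and -0.0099 without Erbb3d/d replicate 2 or 3.

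Nrg4 encodes a ligand of ERBB4, the receptor with at most 3 reads in a library here, and lies on chromosome 9 at 55220222 to 55326844. Its levels were 9.92, 13.8, 8.08 and 8.13 CPM in Erbb3f/f libraries 1 to 4 against 6.09, 8.97, 7.32 and 10.1 CPM in Erbb3d/d libraries 1 to 4. Erbb3d/d replicates 1 and 3 lay below every Erbb3f/f library and the other 2 within their range. The log2 fold change was -0.30 (SE 0.24), at adjusted p = 0.667 by edgeR. It was -0.093 without Erbb3f/f replicate 2, the highest library, -0.18 without Erbb3d/d replicate 1 and -0.46 with the epithelial mean as a covariate. Its exons overlap those of Fbxo22 and Gm15625 on the other strand. In non-directional libraries reads of the shared bases cannot be assigned to 1 gene, so the level of Nrg4 is uncertain to that extent. The same limit holds for Nrg1, Tgfa, Ereg, Egf and Erbb2, whose exons also overlap those of genes on the other strand.

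Hbegf encodes heparin-binding EGF-like growth factor, a ligand of EGFR and ERBB4, and lies on chromosome 18 at 36504927 to 36515805. Its levels were 34.0, 17.9, 12.6 and 19.8 CPM in Erbb3f/f libraries 1 to 4 against 30.0, 31.9, 22.2 and 35.6 CPM in Erbb3d/d libraries 1 to 4. In 3 of the 4 Erbb3f/f libraries it was below every Erbb3d/d library, and replicate 1 was the exception. The means were 21.1 ± 9.11 and 29.9 ± 5.65 CPM (SD over 4 libraries of each label). The log2 fold change was 0.51 (SE 0.28), at adjusted p = 0.510 by edgeR. Without Erbb3f/f replicate 1 it was 0.85 (SE 0.21), with an adjusted p of 0.409, and without Erbb3f/f replicate 3 it was 0.32 (SE 0.25). With the epithelial mean as a covariate it was 0.27 (SE 0.39), and with the smooth muscle mean 0.0070 (SE 0.30), with an adjusted p of 0.995. The highest Hbegf among the Erbb3f/f libraries and the highest smooth muscle mean among them (7.10) were in the same library, replicate 1. Erbb3f/f replicate 2, at a mean of 6.98, had 17.9 CPM of Hbegf, and replicate 4, at 6.40, had 19.8 CPM. Erbb3d/d replicate 1 had the highest smooth muscle mean of the 8 libraries, 8.18, and less Hbegf than Erbb3d/d replicates 2 and 4. The part of smooth muscle in the result was not tested further.

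Tgfa encodes transforming growth factor alpha, a ligand of EGFR, and lies on chromosome 6 at 86195223 to 86275719 on the plus strand. It had 12.5, 19.7, 30.4 and 22 CPM in Erbb3f/f libraries 1 to 4 against 17.4, 24.7, 36.1 and 40.1 CPM in Erbb3d/d libraries 1 to 4. Erbb3d/d replicates 3 and 4 exceeded every Erbb3f/f library and the other 2 lay within their range. The means were 21.1 ± 7.39 and 29.6 ± 10.4 CPM (SD over 4 libraries of each label), and the log2 fold change of 0.48 (SE 0.31) was at adjusted p = 0.572 by edgeR. With the smooth muscle mean as a covariate it was 1.19 (SE 0.33), and with the epithelial mean 0.24 (SE 0.51), with adjusted p-values of 0.438 and 1.0. It was 0.31 without Erbb3f/f replicate 1 and 0.31 without Erbb3d/d replicate 4. The lowest Tgfa library, Erbb3f/f replicate 1, was the highest Erbb3f/f library for Hbegf.

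Egf, the founding member of the family, lies on chromosome 3 at 129677565 to 129755316. It rested on few reads, 19, 14, 22 and 18 in Erbb3f/f libraries 1 to 4 and 6, 13, 13 and 11 in Erbb3d/d libraries 1 to 4. These made 1.85, 1.46, 1.73 and 2.03 CPM, and 0.589, 1.51, 1.02 and 0.964 CPM. In 3 of 4 Erbb3d/d libraries Egf was below every Erbb3f/f library, and replicate 2 lay just above the lowest of them. The estimate was -0.79 on the log2 scale (SE 0.40), with an unadjusted p of 0.0748 and adjusted p = 0.479 by edgeR. Without Erbb3d/d replicate 2 it was -1.02 (SE 0.45), with an adjusted p of 0.248. It was -0.46 (SE 0.56) with the smooth muscle mean as a covariate and -0.85 (SE 0.62) with the epithelial mean. Egf also shares exonic bases with 2 genes of the other strand in GENCODE vM21.

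Btc encodes betacellulin, a ligand of EGFR and ERBB4. It had 26, 29, 8 and 17 reads in Erbb3f/f libraries 1 to 4 and 25, 13, 29 and 36 in Erbb3d/d libraries 1 to 4, or 2.53, 3.03, 0.628 and 1.92 CPM and 2.45, 1.51, 2.28 and 3.16 CPM. The labels overlapped over most of their range. The log2 fold change was 0.23 (SE 0.47), at adjusted p = 0.879 by edgeR. This direction rested on Erbb3f/f replicate 3, since it was -0.080 (SE 0.39) without that library, and it was also negative with either covariate, at -0.49 in both fits.

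Areg, on chromosome 5 at 91139599 to 91148432, encodes amphiregulin and had 5, 15, 10 and 6 reads in Erbb3f/f libraries 1 to 4 and 10, 6, 6 and 12 reads in Erbb3d/d libraries 1 to 4. The sums were 36 and 34 reads, or 0.869 CPM (95% Poisson interval 0.609 to 1.20) and 0.793 CPM (0.549 to 1.11) pooled over the libraries of each label. The intervals cover counting error only, and they overlap over most of their width. Ereg, the gene of epiregulin, had 2 reads in Erbb3f/f replicate 2, 4 reads in Erbb3d/d replicate 4 and 0 reads in the other 6 libraries, in each of which 0 reads allow a level of up to 0.235 to 0.350 CPM.

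Epgn encodes epigen, a ligand of EGFR with low affinity, and had 0, 0, 1 and 0 reads in Erbb3f/f libraries 1 to 4 and 4, 1, 6 and 1 reads in Erbb3d/d libraries 1 to 4. The CPM values did not overlap, but the closest libraries had 1 read each. The sums of 1 and 12 reads give a ratio of 11.6 with a 95% interval from 1.72 to 496, for counting error only. Of the genes below the filter, this ratio was computed for Epgn only, the one with the most uneven sums. When every gene with a read was tested, Epgn had a log2 fold change of 3.02 and adjusted p = 0.435 by edgeR, Areg -0.13 and 0.956, and Ereg 0.76 and 0.880.

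**Figure D3:**
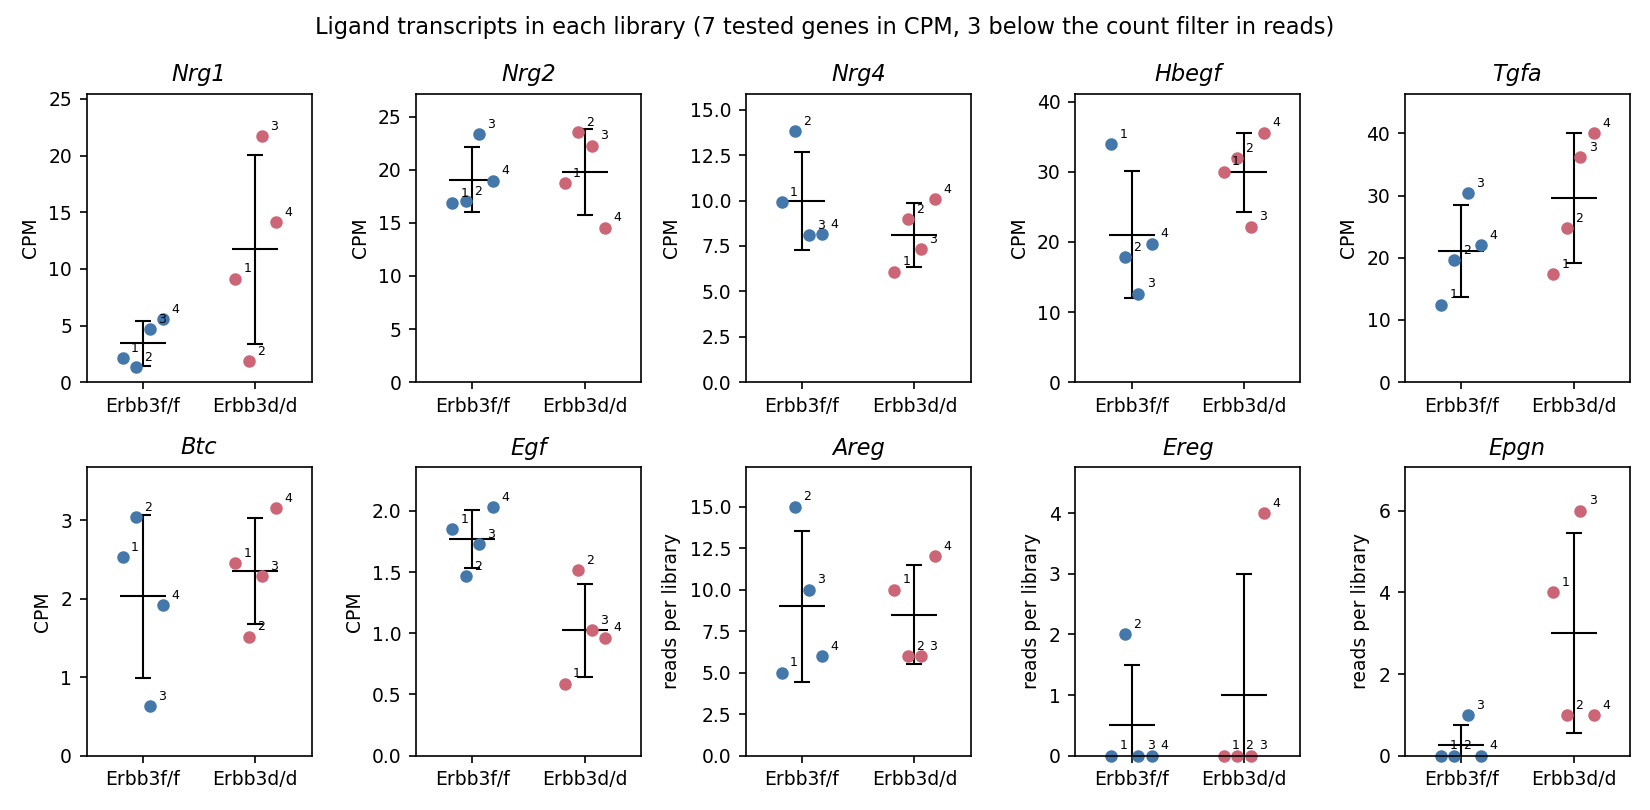
Each ligand gene in the 8 libraries, with the replicate number beside each point and the mean ± SD (n = 4) in black; 7 tested genes are in CPM and Areg, Ereg and Epgn in reads. The labels overlap in all 7 tested genes, and Erbb3d/d replicate 2 lies within the range of Erbb3f/f for Nrg1 and Egf.

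The closest partners of the other tested ligands differed from those of Nrg1. By the same measure they were Slc35a2, Tmem47 and Fbxl4 for Nrg2, Sgms2, Rpl24 and Rdh1 for Nrg4, Stxbp6, Trim47 and Arc for Hbegf, Plagl2, AK010878 and Cmtm6 for Tgfa, Dynll1, Ppme1 and C530005A16Rik for Btc, and Gcnt2, Dera and 2310014L17Rik for Egf. These correlations ran from 0.935 to 0.986. No gene was among the 3 closest of more than 1 ligand, and no ligand was among the 3 closest of another.

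The other genes of the pathway were read from lists. Of 12 genes for the release of ligands from the membrane (the proteases Adam9, Adam10, Adam12, Adam17 and Adam19, the ADAM17 partners Rhbdf1, Rhbdf2 and Frmd8, Bace1, Nrdc listed as Nrd1, Cd9 and the ADAM inhibitor Timp3), all were tested and 0 were called by edgeR. Adam17 and Adam10 are named for their role, after their values were seen. Adam17, the main sheddase of several EGFR ligands, had a log2 fold change of 0.03 (SE 0.09), and Adam10, which cuts the Egf and Btc precursors, 0.12 (SE 0.10). The smallest p on this list was that of Timp3, with 329 ± 30.8 CPM in Erbb3f/f against 409 ± 37.6 CPM in Erbb3d/d (SD over 4 libraries of each label) and no overlap between the labels, a log2 fold change of 0.31 (SE 0.10) and an adjusted p of 0.313. The median over the list was 0.06, beside -0.01 over all genes tested, and 2 of the 12 had an unadjusted p under 0.05, where 11.6% of all genes tested did.

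Of 9 receptors and restraining factors, 8 were tested and 0 were called, with 2 at an unadjusted p under 0.05, where 11.6% of all genes tested passed, and a median log2 fold change of 0.11 beside -0.01 over all genes. Egfr had 134, 164, 126 and 91.3 CPM in Erbb3f/f libraries 1 to 4 against 70.4, 111, 47.9 and 63.3 CPM in Erbb3d/d libraries 1 to 4, and Erbb3d/d replicate 2 was the only one of its label above the lowest Erbb3f/f library. Its log2 fold change was -0.82 (SE 0.26), at adjusted p = 0.313 by edgeR. Without Erbb3d/d replicate 2 it was -1.09 (SE 0.20), with an adjusted p of 0.0355. Erbb2 and Erbb3 had log2 fold changes of 0.36 (SE 0.15) and 0.53 (SE 0.28), with adjusted p-values of 0.408 and 0.484. With the epithelial mean as a covariate, that of Egfr was -0.33 (SE 0.30), that of Erbb2 0.05 (SE 0.19) and that of Erbb3 -0.0097 (SE 0.36). With the smooth muscle mean, that of Egfr was -0.96 (SE 0.37), that of Erbb2 0.25 (SE 0.21) and that of Erbb3 0.93 (SE 0.35).

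The list of 12 genes that respond to ERK signalling downstream of the receptors held 0 called genes, although the estimate was higher in Erbb3d/d for all 12, with a median log2 fold change of 0.40 against -0.01 over all genes tested. At an unadjusted p under 0.05 there were 6, all higher, where 6.64% of all genes tested passed in that direction. The smallest p was that of Dusp4, a phosphatase of MAP kinases, with 5.35, 5.75, 8.16 and 9.15 CPM in Erbb3f/f libraries 1 to 4 against 11.5, 14.6, 25.5 and 21.3 CPM in Erbb3d/d libraries 1 to 4, which did not overlap. Its log2 fold change was 1.36 (SE 0.28), at adjusted p = 0.183 by edgeR. DESeq2 called it with an adjusted p of 0.00166, and edgeR did so without Erbb3d/d replicate 2 (0.0401). Leaving out any other single library left Dusp4 uncalled by edgeR, at adjusted p-values from 0.201 to 0.491. With the epithelial mean as a covariate its log2 fold change was 0.84 (SE 0.38), not called, and with the smooth muscle mean 1.95 (SE 0.31), at adjusted p = 0.325. The mean log2 CPM of the list was 4.64 ± 0.179 in Erbb3f/f against 5.11 ± 0.183 in Erbb3d/d (SD over 4 libraries of each label; exact permutation test, p = 0.0571). Epithelial and smooth muscle markers were also higher by estimate in Erbb3d/d, for 15 of 18 and 9 of 10 genes, with medians of 0.63 and 1.09. Of the 32 tested genes of the release, receptor and ERK-responsive lists together, 10 had an unadjusted p under 0.05 without a covariate. With the epithelial mean as a covariate 1 did, and with the smooth muscle mean 5. Over all 14598 genes tested the counts were 1695, 487 and 1302 in the same order. They fell over all genes too, but by a smaller share than on these lists with either covariate, and the difference was not tested.

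**Figure D4:**
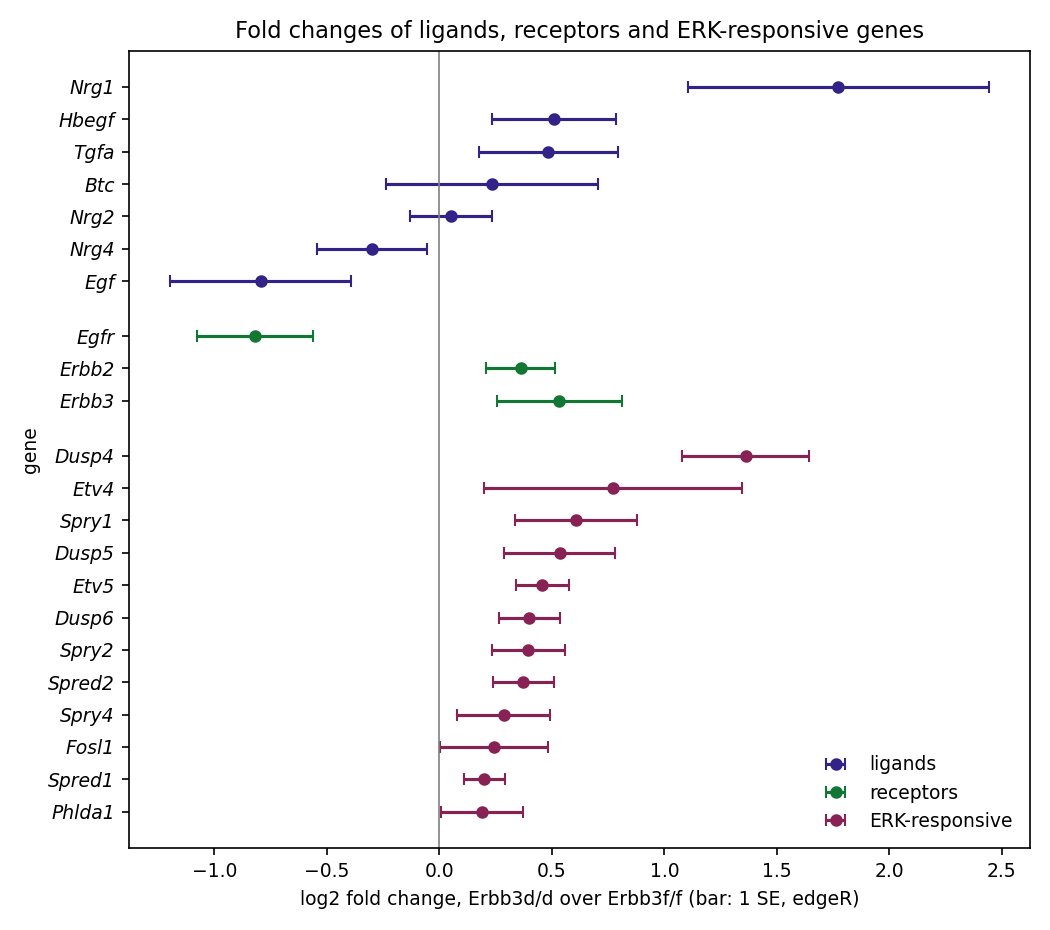
Log2 fold change of Erbb3d/d over Erbb3f/f with 1 SE from edgeR, for the 7 tested ligands, 3 receptors and 12 ERK-responsive genes. All 12 ERK-responsive estimates lie above 0, ligands lie on both sides, and no gene shown had an adjusted p under 0.05.

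Areg and Hbegf are known as hormone-responsive genes of uterine epithelium, so short lists of epithelial genes induced by each hormone were set beside them. Of 6 progesterone-induced genes (Ihh, Cyp26a1, Calca, Acod1 listed as Irg1, Il13ra2 and Gata2), 5 were tested and 0 called, and 4 of the 5 had a lower estimate in Erbb3d/d. Their mean log2 CPM was 5.26 ± 0.170 in Erbb3f/f against 4.74 ± 0.184 in Erbb3d/d (SD over 4 libraries of each label; exact permutation test, p = 0.0286, the smallest this design can give, and 1 of 10 lists tested so). Adjusted over the 10 lists by the Benjamini-Hochberg method it was 0.171, and without any 1 of the Erbb3f/f libraries the unadjusted p was 0.0571. Il13ra2, a decoy receptor of interleukin 13 with the smallest p on that list, had 9.24, 9.73, 7.53 and 5.42 CPM in Erbb3f/f libraries 1 to 4 against 3.53, 5.36, 1.18 and 0.438 CPM in Erbb3d/d libraries 1 to 4, a log2 fold change of -1.64 (SE 0.59) at adjusted p = 0.340 by edgeR. The pooled level of Areg, 0.869 and 0.793 CPM, has overlapping intervals and gives no direction. Of 5 oestrogen-induced genes (Ltf, C3, Muc1, Lcn2 and Sprr2f), 0 were called and 4 had a higher estimate, and the exact permutation test of their mean gave p = 0.429. Lcn2, the secreted iron-siderophore carrier lipocalin 2, had the smallest p on that list, with a log2 fold change of 1.15 (SE 0.57) and an adjusted p of 0.479. It was 0.60 without Erbb3d/d replicate 4 and -0.35 with the epithelial mean as a covariate, and the epithelial markers were higher by estimate in Erbb3d/d for 15 of 18 genes. With the same covariate Il13ra2 was at -0.54. With the smooth muscle mean as a covariate Il13ra2 was at -1.93 and Lcn2 at 1.40.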

How the data were processed

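RNA from 8 libraries of uterine stromal cells, 4 labelled Erbb3f/f and 4 labelled Erbb3d/d, was sequenced without strand information. The deposited files hold raw counts per gene symbol, 1 file per library. HISAT2, SAMtools, HTSeq, StringTie and the mouse build mm10 (GRCm38) are named in the submitters' processing notes, with no versions, and whether a count is a read or a pair is not given in the sources used here. Groups came from the sample labels.

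Counts were fitted over all genes with edgeR 4.0.16 (R 4.3.3, limma 3.58.1): filterByExpr with a minimum count of 10, TMM scaling on gene totals, robust quasi-likelihood test of genotype, Benjamini-Hochberg adjustment over 14598 genes, threshold 0.05. CPM used the same scaled sizes. List means of log2 CPM (prior count 2) were compared by the two-sided exact permutation test over 70 assignments, with a smallest p of 0.0286. Poisson intervals are exact at 95%, and a count of 0 was read as allowing 3 reads. No pair of libraries agreed within sampling noise, since the smallest chi-square per degree of freedom was 10.6. That pair was Erbb3f/f replicate 4 and Erbb3d/d replicate 2. By this measure Erbb3d/d replicate 2 lay at 10.6 to 14.4 from the Erbb3f/f libraries. From the other Erbb3d/d libraries it lay at 19.1 to 35.2, so it was closer to the other label, and the reason was not tested.

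The ligands, lists and tests were chosen with earlier results of these data known. Genes named were the 10 ligands, the smallest p of each pathway list, 4 receptors, 4 markers and the 3 closest partners of each tested ligand, and, outside that rule and after their values were seen, Adam10, Adam17 and the genes that an alternative called. RPKM used exon lengths of GENCODE vM21, and 3 listed genes were matched through RefSeq synonyms. Alternatives were upper quartile and RLE scaling, DESeq2 1.42.0, 2 other filters, a replicate block, no robust estimation, each of 2 marker covariates, and leaving out each library. Those for list means were chosen after seeing the data.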

Additional observations from a re-analysis of the deposited data

Results flagged for a closer look

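In 5 of 40 groups of 4 libraries 1 value lay far from the other 3 by Dixon's criterion. For normally distributed values chance flags about 1 in 20, or 2 of 40. That rate does not hold for groups with 0 reads in all libraries but 1, which always meet the criterion, so the 5 cannot be set against the 2. For 3 of them the other libraries had no reads: Ereg at 0.209 CPM in Erbb3f/f replicate 2, Ereg at 0.351 CPM in Erbb3d/d replicate 4, and Epgn at 0.0785 CPM in Erbb3f/f replicate 3, from 2, 4 and 1 reads. The mean log2 CPM of the ERK-responsive list was 4.83 in Erbb3d/d replicate 2, with the nearest library of that label at 5.19. The mean of the oestrogen-induced epithelial list was 6.06 in Erbb3f/f replicate 4, with the nearest at 5.51.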

How the results depend on the processing

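The count of ligands called was 0 in the 17 alternatives as in the reported fit. Over all genes the count was 0, but 262 with DESeq2 (203 higher, 59 lower), 52 with the replicate block and 0 to 259 when leaving out 1 library, with the 259 without Erbb3d/d replicate 2. Among release, receptor and ERK-responsive genes it was 0, but 2 with DESeq2 (Dusp4 and Etv5), 1 with the replicate block (Dusp4) and 0 to 4 when leaving out 1 library, with Cd9, Dusp4, Dusp6 and Egfr without Erbb3d/d replicate 2. The causes were not tested.

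Nrg1 kept a higher estimate in the alternatives run, from 0.69 to 2.66 on the log2 scale. Nrg2 ran from -0.038 to 0.18 when leaving out 1 library, with -0.038 and -0.0099 without Erbb3d/d replicate 2 or 3. Btc ran from -0.080 (without Erbb3f/f replicate 3) to 0.50 and turned to -0.49 with the epithelial and -0.49 with the smooth muscle covariate. With the epithelial covariate Erbb3 turned to -0.0097 and Lcn2 to -0.35. The cause was not tested.

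Leaving out 1 library, the list mean difference ran from 0.034 to 0.089 for ligand release, with an exact permutation p of 0.0286 without Erbb3d/d replicate 2. It ran from -0.023 to 0.065 for receptors and restraint, with -0.023 without Erbb3f/f replicate 3 and -0.0099 without Erbb3d/d replicate 2. It ran from 0.41 to 0.56 for the ERK-responsive list, with p = 0.0286 (exact permutation test) without Erbb3d/d replicate 2, and from -0.60 to -0.43 for the progesterone-induced list. It ran from 0.16 to 0.79 for the oestrogen-induced list, lowest without Erbb3d/d replicate 4 and highest without Erbb3d/d replicate 2, and from 0.032 to 0.40 for endothelial markers, lowest without Erbb3f/f replicate 4. It ran from -0.21 to 0.032 for immune markers, with 0.032 without Erbb3f/f replicate 3 and 0.029 without Erbb3d/d replicate 2.

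The labels share replicate numbers, and deviations of same-numbered libraries correlated at 0.221, 0.159, 0.0959 and 0.145, all positive. Those of libraries with different numbers correlated at -0.296 to 0.302. Erbb3f/f replicates 1, 2 and 3 correlated best with their own number, but not every library did. The reported fit did not take the numbers as pairs, and these values do not settle whether they are. With the block 3 ligands had an unadjusted p under 0.05 in place of 1. Over all 14598 genes tested, 2161 passed with the block in place of 1695. Nrg1 was at 1.64 with the block (SE 0.31 in place of 0.67), at adjusted p = 0.0849 by edgeR. Depth limits Areg, Ereg and Epgn, which rest on 0 to 15 reads in a library, and Egf and Btc, with 6 to 36.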
